A study of Mus musculus with 40 samples.

Results

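RNA-seq of mouse bladder urothelial organoids was used to compare cells labelled as double knockouts of Kmt2c and Kmt2d (dKO) with wild type (WT) cells, both kept in the menin inhibitor MI-503 at 1 µM for 4 days (the libraries are labelled MI503). The comparison holds 4 of the 8 RNA-seq libraries and of the 40 samples in the series, 2 per genotype, chosen by their genotype and treatment labels. The other 4 RNA-seq libraries are the same genotypes in the solvent DMSO for 4 days, and they serve here as the second setting in which the genotypes were compared. Every group grew in a medium with Noggin, R-spondin, EGF, the ROCK inhibitor Y-27632, the TGF-beta receptor inhibitor A83-01 and N-acetylcysteine, so WT and dKO shared these agents. The labels give neither the alleles, the deleted exons, the strain, sex or age of the animals, nor whether a genotype is 1 clone or line, and they do not say that the replicates were separate cultures. The p-values therefore measure only the spread between these libraries, which may be technical, and a difference between genotypes cannot be told apart from a difference between the lines.

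KMT2C and KMT2D are paralogous methyltransferases that place monomethylation on lysine 4 of histone H3, mainly at enhancers. Menin is a scaffold that tethers the related methyltransferase KMT2A, and its paralog KMT2B, to promoters, and MI-503 occupies the pocket of menin that KMT2A binds. HOX genes and their cofactors are the best known targets of the menin-KMT2A complex. The urothelium is the stratified lining of the bladder: basal cells with p63 and keratins 5 and 14 lie at the bottom, and superficial umbrella cells, which carry uroplakins and keratin 20, face the urine. The comparison asks how 2 genotypes that differ in the enhancer methyltransferases differ when the menin route is blocked in both.

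Library totals ran from 58113705 to 68571176 counts. Values below are CPM, counts scaled to library size with TMM factors. Differences are log2 fold changes of dKO over WT with standard error (SE) and an adjusted p from edgeR's quasi-likelihood test over all 16921 genes tested, and "rose", "fell", "higher" and "lower" are used of genes with an adjusted p under 0.05. The organoids carried their labelled cell type in every library: the 14 urothelial and epithelial markers summed to 17060 to 18900 CPM in the 4 MI503 libraries. Among markers of other cells, Ptprc, Cd3e, Lyz2, Pecam1, Cdh5, Col1a2, Dcn and Cnn1 were each under 0.07 CPM in all 4, while other members of those lists were expressed. The summed levels in WT and dKO were 207 to 210.5 and 92.1 to 99.3 CPM for 19 immune genes, 13.7 to 14.6 and 14.5 to 15.8 for 13 endothelial, 63.2 to 65.2 and 8.79 to 9.53 for 13 fibroblast, and 142 to 154 and 155 to 185 for 12 smooth muscle genes. Their part in the results was not tested. The share of counts from endoplasmic reticulum (ER) chaperone genes was 0.414% to 0.44% in the MI503 libraries and 0.506% to 0.532% in dKO DMSO, against 3.62% and 3.89% in WT DMSO, which stands apart. Those libraries also enter the filter, the scaling and the spread of the fit: without them 4571 genes were higher and 4723 lower under MI503, against 4494 and 4828 with them.

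Of the targeted genes, Kmt2c had 60.3 and 61.6 CPM in the WT MI503 libraries and 26.6 and 29.8 CPM in the libraries labelled dKO (log2 fold change -1.11, SE 0.0613, adjusted p = 2.89e-09). Its RNA was lower in dKO but present in both libraries. Kmt2d had 75.8 and 65.7 CPM in WT and 104 and 86.5 CPM in dKO (log2 fold change 0.43, SE 0.0993, adjusted p = 0.00226), so its RNA was higher, not lower. Since reads were summed per gene, a deleted exon would not show, and these values check the labels only in part. Among the 20 tested genes of the KMT2 and SET1 (COMPASS) complexes, 9 were higher, 3 lower and 8 were not called, with a median of 0.10. The inhibitor's own target pair was higher in dKO: Kmt2a had 89.2 and 84.5 CPM in WT and 116 and 123 in dKO (0.46, adjusted p = 2.3e-06), and Men1, which encodes menin, 34.1 and 32.4 against 48.7 and 42.9 (0.46, adjusted p = 0.000282). Psip1, which encodes the chromatin tether LEDGF of the menin complex, also rose (0.43, adjusted p = 2.68e-05), while Kdm6a, the H3K27 demethylase that sits in KMT2C and KMT2D complexes, had a difference of 0.06 (adjusted p = 0.473). Polycomb genes, whose products write and read repressive marks, had 12 of 30 higher, 5 lower and 13 not passed (median 0.04). Bmi1, a subunit of Polycomb complex PRC1, rose from 30.7 and 31.6 to 58.7 and 62 CPM (0.96, adjusted p = 5.12e-09), and Rbbp7, a histone chaperone shared by several complexes, fell (-0.55, adjusted p = 5.65e-07). Histone demethylases were split evenly, 6 higher and 6 lower of 19, with a median of -0.06 that turned to 0.01 when only library size was used for scaling.

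Across all genes, 4494 were higher in dKO (26.6% of those tested) and 4828 lower (28.5%), together 55.1%, while 7599 were not called. These shares are the background for every count of list members below: a list with about 1 in 4 members up and as many down is like the rest of the transcriptome. The small spread between libraries (biological coefficient of variation 5.14%) lets small differences pass, and the changes of at least 2-fold were fewer: 1111 higher and 1802 lower. Of these, 541 and 961 reached 4-fold and 198 and 305 reached 16-fold. The median log2 fold change of all genes was 0.01.

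Among genes with a mean of at least 5 CPM over the MI503 libraries, most of the largest increases in dKO were in genes near 0 in WT. Myh10 encodes nonmuscle myosin heavy chain IIB, a motor of the cell cortex (chromosome 11, 68691915 to 68816626, GRCm38.p6). It had 0.234 and 0.318 CPM in the WT MI503 libraries and 82 and 74.1 CPM in dKO (log2 fold change 8.15, SE 0.118, adjusted p = 1.2e-14). Gap43, a growth cone protein of neurons (chromosome 16, 42248552 to 42340651), went from 0.0585 and 0.10 to 16.1 and 14.2 CPM (log2 fold change 7.57, SE 0.195, adjusted p = 1.36e-12). Mill1, an MHC class I-like gene linked to the leukocyte receptor complex (chromosome 7, 18245225 to 18266092), had 0.468 and 0.434 CPM in WT and 57.1 and 58.8 in dKO (log2 fold change 7.0, SE 0.114, adjusted p = 2.2e-14). In each of these 3 genes the WT libraries stayed under 0.5 CPM, and the genotypes were far from overlapping. Krt6b, a keratin of activated and stratified epithelia (chromosome 15, 101676023 to 101680293), had 0.0877 and 0.0836 CPM in WT and 10.6 and 10.4 in dKO (log2 fold change 6.9, SE 0.158, adjusted p = 4.22e-13). Pi15, a secreted cysteine-rich protein, was the most abundant of the 10 leading increases, with 9.8 and 9.26 CPM in WT and 306 and 319 in dKO (log2 fold change 5.03, SE 0.0657, adjusted p = 6.85e-15). The others were Mkx, a homeobox factor of tendon, Kctd12, an auxiliary subunit of GABA-B receptors, Gnai1, a G protein subunit, Kcnq5, a potassium channel, and Slco5a1, a solute carrier, with log2 fold changes of 6.06, 5.93, 5.12, 4.76 and 4.62. All 10 were also higher in dKO in DMSO.

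The largest decreases were mirror images, genes well expressed in WT and nearly off in dKO. The retrotransposon-derived imprinted gene Peg10 (chromosome 6, 4747306 to 4760517) had 109 and 111 CPM in WT and 0.0297 and 0 CPM in dKO (log2 fold change -12.62, SE 0.207, adjusted p = 2.37e-14). Its neighbours moved with it: Sgce, the epsilon-sarcoglycan gene, had 3.61 and 4.04 CPM in WT and 0.0297 and 0 in dKO, and Ppp1r9a, which encodes the actin-binding protein neurabin, 22.7 and 22.8 against 0.0445 and 0.081. Pon3, a paraoxonase gene of the same stretch of chromosome 6, fell from 25.1 and 25.1 to 1.53 and 1.31 CPM (-4.14, adjusted p = 3.78e-12). Pycard encodes the inflammasome adaptor ASC (chromosome 7, 127991373 to 127993867). It had 194 and 193 CPM in WT and 1.2 and 1.2 in dKO (log2 fold change -7.33, SE 0.0989, adjusted p = 6.85e-15), the same to within 1 CPM in each pair. Arhgdib, a GDP-dissociation inhibitor of small GTPases, fell from 208 and 224 to 1.81 and 2.16 CPM (log2 fold change -6.77, SE 0.0819, adjusted p = 6.59e-15). Dsc2, a desmosomal cadherin, and Cdsn, the corneodesmosome protein corneodesmosin, fell, with log2 fold changes of -7.03 and -6.42. Prom2, a membrane protrusion protein, Cmbl, a hydrolase, and Ankk1, a kinase-like gene, had differences of -6.66, -6.86 and -8.25. Acta1, the skeletal muscle actin, was unlike the other 9: it had 19 and 15.9 CPM in WT MI503 but 0.0326 and 0.116 in WT DMSO, 0.0607 and 0.182 in dKO DMSO and 0.163 and 0.081 in dKO MI503, so that only the inhibitor-treated WT libraries expressed it. The other 9 were also lower in dKO in DMSO.

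**Figure D1:**
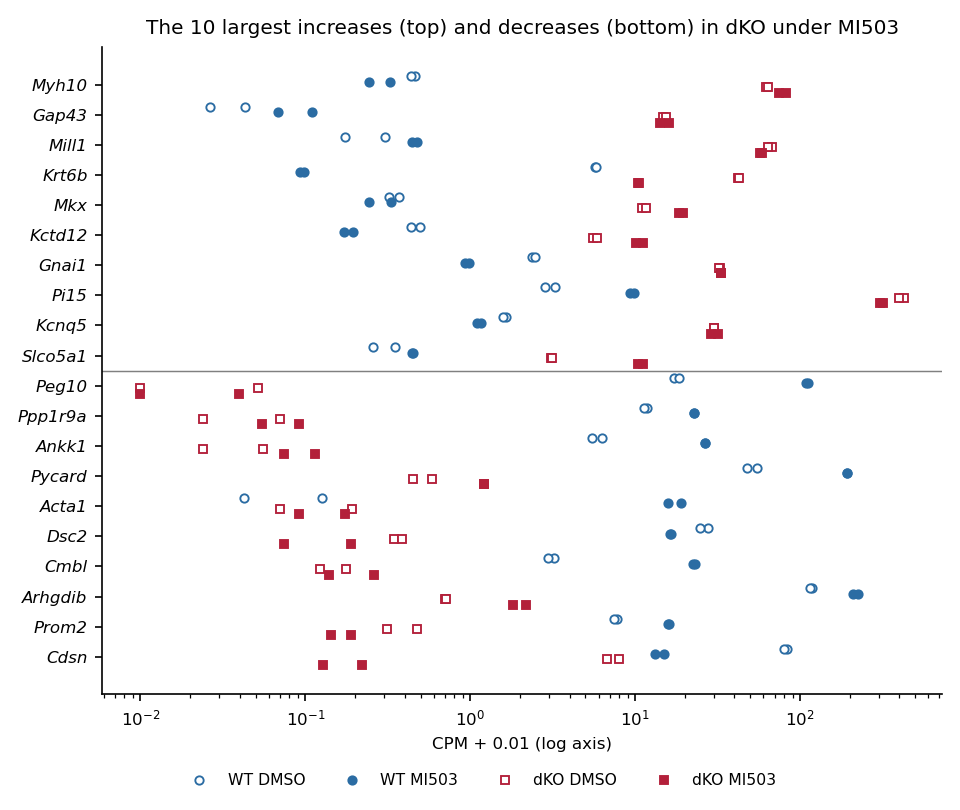
CPM + 0.01 on a log axis for the 10 genes with the largest increases and the 10 with the largest decreases in dKO under MI503, with a mean of at least 5 CPM over the MI503 libraries; each of the 8 libraries is 1 point. Filled WT circles and filled dKO squares are separated by more than 20-fold in every gene, and Acta1 is high only in the 2 WT MI503 libraries.

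Some genes went beyond a large fold change to presence in 1 genotype alone under MI503. Defined as at most 3 counts summed over both libraries of a genotype and at least 1 CPM in each library of the other, 27 genes were counted in dKO only and 26 in WT only. Of these, 10 and 8 met the same definition in DMSO. Slitrk5, a neuronal transmembrane protein (chromosome 14, 111675115 to 111683144), had 0 counts in WT and 1268 in dKO, which puts dKO at least 420-fold higher when the WT group is set to a floor of 3 counts. Nectin3, an adhesion molecule, had 1 count in WT and 656 in dKO, a ratio of 652 with a 95% counting interval of 117 to 25800. Slc6a15, an amino acid transporter of neurons, had 0 and 518, at least 172-fold higher. Transcription factors of other lineages were among the genes counted only in dKO under MI503: Tal1 of blood, Eomes and Tbx20 of early embryo and heart, Irx5, Mef2c and Zeb2. Their dKO levels under MI503 were low, with group means of 1.26 CPM for Mef2c to 3.45 CPM for Zeb2. Of these factors only Tal1, Tbx20 and Mef2c met the definition in DMSO too. In WT DMSO, Zeb2 had 1.87 and 1.57 CPM and Eomes 0.114 and 0.198. On the WT side, Peg10 had 14099 counts in WT and 2 in dKO, a ratio of 7100 (1960 to 58600). Unc13c, a synaptic priming protein, had 921 and 0, at least 309-fold lower in dKO. Pak3, a kinase, had 712 and 0 (at least 239-fold lower), and Ephb1, an ephrin receptor, 510 and 0 (at least 171-fold lower). Adtrp, a hydrolase of fatty acid esters of hydroxy fatty acids, had 786 and 2, a ratio of 396 (109 to 3270). Intervals and floors cover counting error only.

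The promoters of the genes with the largest changes were described by their CpG content. A CpG is a cytosine followed by a guanine, and most promoters of widely expressed genes are rich in it, while many tissue-restricted genes start from CpG-poor sequence. RefSeq windows from 250 bases before to 50 bases after a listed start of a gene (GRCm38.p6) were matched by symbol for 10885 of the tested genes, taking the first listed start of each. A listed start need not be the outer end of the gene. The Slitrk5 window lies wholly inside the gene's span of 111675115 to 111683144. A pair of genes from each side, chosen by hand, is shown as an example, with every CpG in capitals. These genes need not be typical of their side. Slitrk5 and Myh10 rose, and Pycard and Sparc, the secreted matrix glycoprotein described below, fell.
Slitrk5, chr14:111675777-111676076, plus strand: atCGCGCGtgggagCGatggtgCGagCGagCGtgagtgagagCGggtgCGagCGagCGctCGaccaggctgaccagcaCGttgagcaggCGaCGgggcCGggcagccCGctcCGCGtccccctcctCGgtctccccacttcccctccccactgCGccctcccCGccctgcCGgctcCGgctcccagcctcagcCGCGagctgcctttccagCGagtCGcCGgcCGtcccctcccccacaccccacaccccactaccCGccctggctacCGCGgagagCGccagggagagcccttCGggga
Myh10, chr11:68691665-68691964, plus strand: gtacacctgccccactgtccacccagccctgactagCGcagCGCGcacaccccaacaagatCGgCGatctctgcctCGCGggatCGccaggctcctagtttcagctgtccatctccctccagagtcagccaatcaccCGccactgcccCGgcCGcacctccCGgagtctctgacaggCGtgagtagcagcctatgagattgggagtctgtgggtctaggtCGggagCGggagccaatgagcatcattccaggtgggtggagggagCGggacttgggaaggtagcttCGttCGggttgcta
Pycard, chr7:127993818-127994117, minus strand: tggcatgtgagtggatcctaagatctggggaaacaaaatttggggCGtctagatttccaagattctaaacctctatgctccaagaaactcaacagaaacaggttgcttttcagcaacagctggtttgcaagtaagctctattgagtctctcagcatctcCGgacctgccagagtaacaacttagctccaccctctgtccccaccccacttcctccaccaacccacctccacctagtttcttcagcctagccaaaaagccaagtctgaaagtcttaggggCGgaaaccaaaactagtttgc
Sparc, chr11:55420031-55420330, minus strand: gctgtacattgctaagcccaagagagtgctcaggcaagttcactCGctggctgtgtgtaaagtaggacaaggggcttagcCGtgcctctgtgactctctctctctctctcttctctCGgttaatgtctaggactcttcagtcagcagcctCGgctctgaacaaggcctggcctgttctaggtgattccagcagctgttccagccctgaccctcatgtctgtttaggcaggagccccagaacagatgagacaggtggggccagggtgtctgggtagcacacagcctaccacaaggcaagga

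The window of Slitrk5 held 35 CpG and that of Myh10 18, while Pycard held 3 and Sparc 4. Over all 10885 genes the median was 21. In the 356 genes with a window that were at least 4-fold higher in dKO it was 17, and in the 658 that were at least 4-fold lower it was 8. Both were below the median of all genes. Windows with fewer than 10 CpG made up 19.5% of all, 32.0% of the strongly higher and 56.1% of the strongly lower genes. CpG-poor windows were rarer among well expressed genes, so the count was repeated in genes with a mean of at least 5 CPM over the MI503 libraries: the shares were then 12% of 8023, 35.3% of 51 and 48.2% of 197. The order of the last 2 groups was therefore the same at this level, with a smaller gap. In DMSO, the shares under 10 CpG were 41.0% of the 420 strongly higher and 47.7% of the 618 strongly lower genes. At a mean of at least 5 CPM over the MI503 libraries that order turned, with 40.0% of 100 and 36.1% of 219. The GC content of the windows had no fixed order either: under MI503 its median was 60.7% in the strongly higher and 55.7% in the strongly lower genes, but 54.0% and 58.3% at the 5 CPM level. The letters TGANTCA, the core that AP-1 factors bind and its own reverse complement, were in 5.5% of all windows, 6.7% of the strongly higher and 11.9% of the strongly lower. The ETS-type letters CCGGAAG, sought on both strands and holding a CpG themselves, were in 17.8%, 2.5% and 5.2%. These shares describe letters in a window, not binding.

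**Figure D2:**
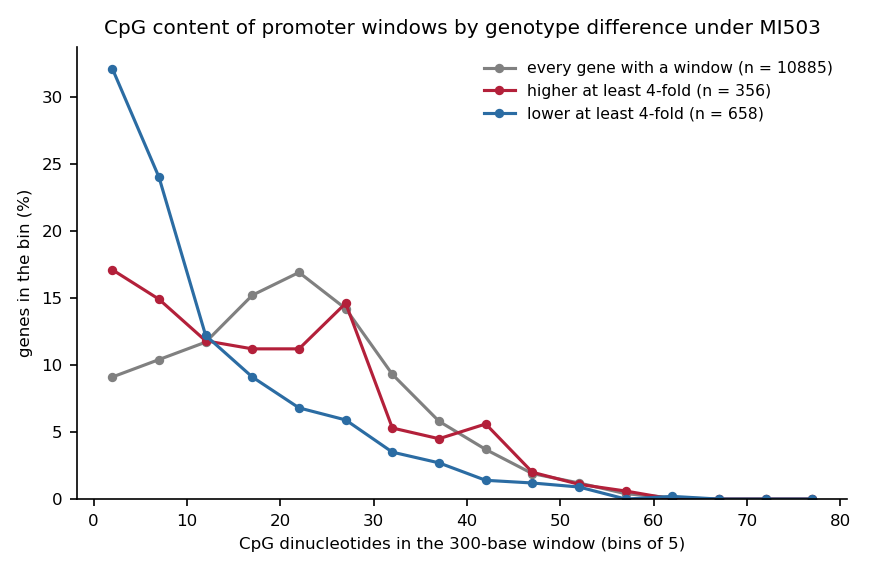
Number of CpG dinucleotides in the 300-base promoter window, in bins of 5, against the percentage of genes in the bin, for every tested gene with a window and for those at least 4-fold higher or lower in dKO under MI503. Lower genes pile up in the first 2 bins, which hold 32.1% and 24% of them, against 9.1% and 10.4% of all genes.

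The lists of urothelial identity genes differed in balance, with exceptions in each. Basal markers were higher as a group: 13 of 21 rose, 2 fell and 6 were not called (median 0.35). Trp63, the master regulator of basal cells, had 236 and 234 CPM in WT and 566 and 565 in dKO (log2 fold change 1.27, SE 0.0436, adjusted p = 2.18e-11). Krt14, the keratin of the most immature basal cells, rose from 1545 and 1371 to 4682 and 3966 CPM (log2 fold change 1.57, SE 0.0988, adjusted p = 1.18e-08), and Krt15 from 1242 and 1237 to 2701 and 2574 (1.09, adjusted p = 2.38e-10). Krt5, already among the most abundant RNAs in WT, rose less, from 7674 and 7266 to 11010 and 9767 CPM (0.48, adjusted p = 6.44e-05). An exception was the nerve growth factor receptor gene Ngfr, which fell from 58.9 and 58.4 to 17.9 and 16.9 CPM (-1.75, adjusted p = 5.96e-11). In bulk RNA, fewer cells of a type and less RNA per cell cannot be told apart.

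Of 32 differentiated urothelial genes, 9 rose, 19 fell and 4 were not called (median -0.45). Pparg, the nuclear receptor that drives luminal urothelial differentiation, fell from 19.9 and 21.1 to 3.4 and 3.91 CPM (log2 fold change -2.49, SE 0.0967, adjusted p = 7.22e-11). Elf3, an epithelial ETS factor, fell from 148 and 147 to 63.7 and 61.7 (-1.24, adjusted p = 3.8e-10), and the surface antigen gene Psca from 416 and 417 to 110.2 and 109 (-1.93, adjusted p = 2.33e-12). Not every luminal regulator moved this way. Gata3 rose from 19.2 and 18.8 to 41.2 and 41.5 CPM (1.12, adjusted p = 2.06e-09), Klf5 from 134 and 133 to 210.2 and 207 (0.64, adjusted p = 2.8e-08), and Foxa1 by 0.21 (adjusted p = 0.00348). Krt13, the keratin of intermediate and stratified epithelium, rose from 157 and 153 to 719 and 711 CPM (log2 fold change 2.21, SE 0.056, adjusted p = 1.14e-12). Tbx3, a T-box factor of the same list, rose from 11.6 and 11.5 to 54.4 and 54.8 CPM (2.24, adjusted p = 2.28e-12). Umbrella cell genes did not move as one. Upk1b, which encodes a uroplakin, had 97.5 and 106 CPM in WT and 97.7 and 103 in dKO (-0.02, adjusted p = 0.824). Krt20 rose from a low level, 0.497 and 0.518 to 6.72 and 6.6 CPM (3.71, adjusted p = 1.86e-10).

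Squamous and keratinisation genes also split, with 13 higher, 17 lower and 5 not passed of 35 (median -0.48). Krt6a, a keratin of activated keratinocytes, rose from 574 and 571 to 1953 and 1824 CPM (log2 fold change 1.72, SE 0.0511, adjusted p = 4.86e-12). Serpinb2, a protease inhibitor of stratified epithelium, rose from 30.2 and 31 to 257 and 267 (log2 fold change 3.1, SE 0.0558, adjusted p = 5.98e-14). Cornified envelope genes went both ways. Sprr1b rose at a low level, from 0.146 and 0.10 to 0.416 and 0.324 CPM (1.56, adjusted p = 0.0113), while Ivl, involucrin, fell from 95.5 and 97.5 to 62.1 and 60.2 CPM (-0.66, adjusted p = 9.56e-08), Dmkn, dermokine, from 147 and 146 to 27.7 and 26.4 (-2.44, adjusted p = 2.4e-12), and Sprr3 from 3.08 and 2.81 to 1.32 and 1.36 (-1.14, adjusted p = 2.07e-06). Cell junction genes were mostly lower, 21 of 32, with 5 higher and 6 not passed (median -0.66). Cgn, cingulin of tight junctions, fell from 58.9 and 57.2 to 9.25 and 10 CPM (log2 fold change -2.59, SE 0.0756, adjusted p = 4.08e-12). Gjb2, the gap junction protein connexin 26, fell from 16.9 and 17.8 to 2.05 and 1.99 (-3.1, adjusted p = 1.13e-11), Cldn1 from 11.5 and 11.1 to 2.08 and 2.06 (-2.45, adjusted p = 4.81e-10), and Cdh1, E-cadherin, from 389 and 389.7 to 279.5 and 285 (-0.46, adjusted p = 5.03e-07). The embryonic claudin gene Cldn6 went against the group, from 46.4 and 47.1 to 249 and 242 CPM (log2 fold change 2.39, SE 0.0473, adjusted p = 1.13e-13).

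**Figure D3:**
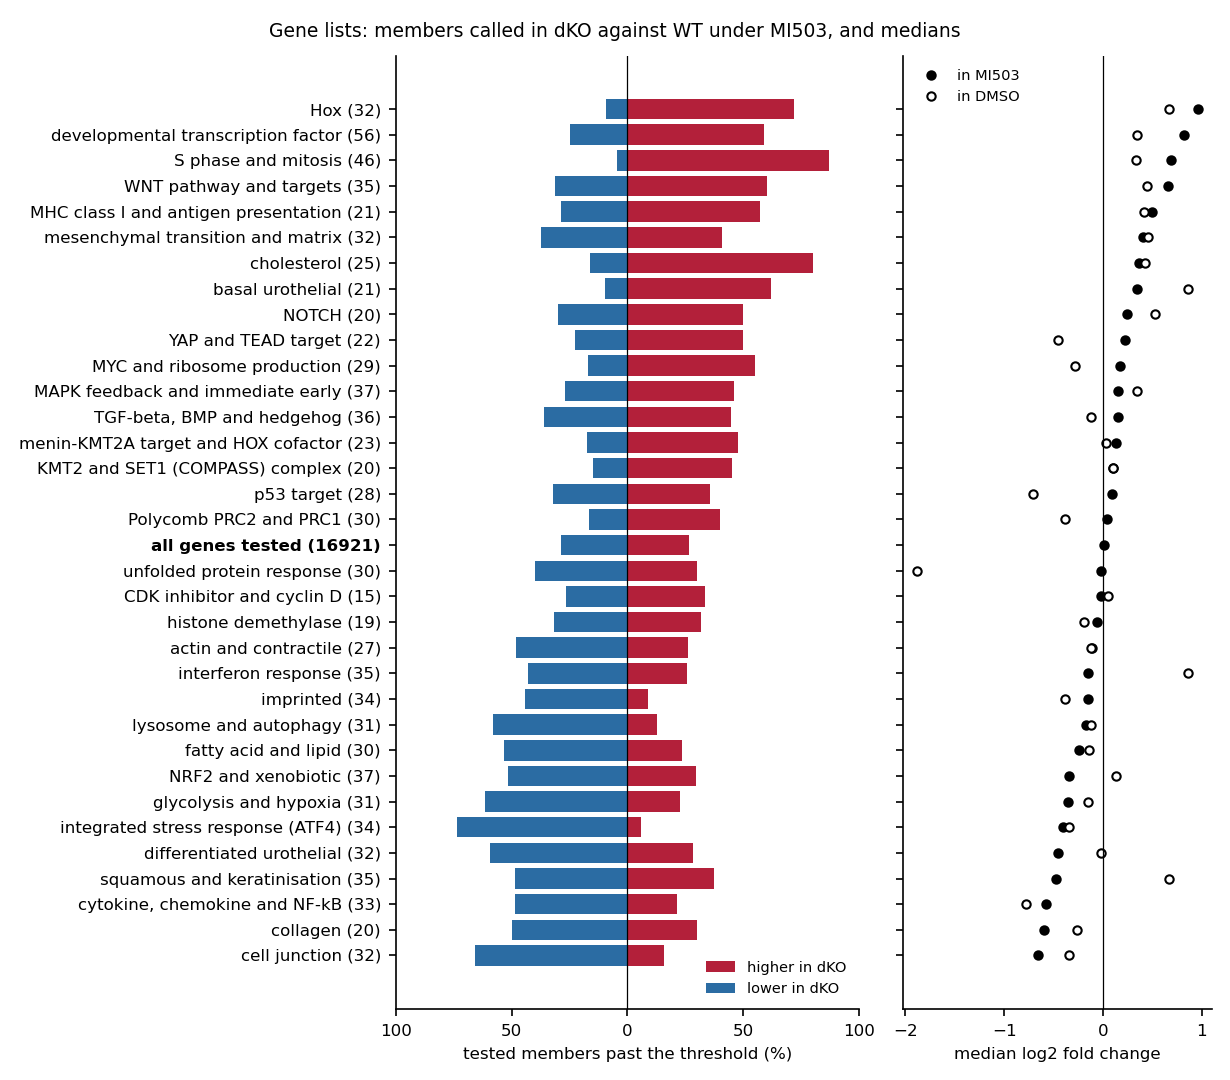
Left, the percentage of tested members of each gene list that were higher (right of 0) or lower (left of 0) in dKO under MI503, with the number tested in brackets and all genes tested in bold. Right, the median log2 fold change of dKO against WT in MI503 (filled) and DMSO (open); Hox, developmental factor and S phase and mitosis lists lie at the top and cell junction genes at the bottom.

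Hox genes, the classical menin targets, were mostly higher in dKO with the inhibitor present in both genotypes. Of 39 Hox genes, 32 passed the filter, and of those 23 rose, 3 fell and 6 were not called (median 0.96). A gene silent in WT could pass only through dKO, so this count is a description. The members followed here all belong to the posterior groups. Hoxa13 rose from 3.51 and 3.16 to 22.3 and 20.3 CPM (log2 fold change 2.67, SE 0.0922, adjusted p = 2.18e-11), and Hoxb13 from 1.07 and 0.635 to 12.1 and 11.9 (log2 fold change 3.8, SE 0.166, adjusted p = 2.47e-10). Hoxa11 rose from 15.6 and 15.7 to 35.6 and 34.8 CPM (1.17, adjusted p = 1.49e-09), Hoxa10 from 28.5 and 28.1 to 49.3 and 50.2 (0.81, adjusted p = 2.69e-08) and Hoxa9 from 43.6 and 42.2 to 74.2 and 73.4 (0.78, adjusted p = 1.13e-08). In each of these 5 genes both dKO libraries lay above both WT libraries, which genes picked largely for a small adjusted p would mostly show. The share of all tested genes with such separation is not given here. Other menin-KMT2A targets and HOX cofactors were mixed, 11 higher, 4 lower and 8 not passed of 23 (median 0.13). The cofactor gene Meis1 had 11.7 and 12 CPM in WT and 10.4 and 11.3 in dKO (-0.13, adjusted p = 0.162), and Meis2 fell from 166 and 171 to 75.1 and 72.8 (-1.19, adjusted p = 7.82e-11). Cdkn1b and Cdkn2c, CDK inhibitor genes that menin keeps on in endocrine cells, rose from 37.3 and 35.8 to 76.1 and 73.1 CPM (1.03, adjusted p = 1.9e-09) and from 4.29 and 3.49 to 12.3 and 11.4 (1.6, adjusted p = 4.17e-08).

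Developmental transcription factors passed the filter in 56 of 106 cases, and of those 33 rose, 14 fell and 9 were not called (median 0.82). A gene silent in WT could pass only through dKO, so this count is a description. Gata2, a factor of blood and urogenital development, rose from 0.0585 and 0.0836 to 10.3 and 8.79 CPM (log2 fold change 7.05, SE 0.23, adjusted p = 1.27e-11). Klf12 rose from 0.0146 and 0.0501 to 8.59 and 7.7 (7.94, adjusted p = 2.04e-11), and Tbx15 from 0.117 and 0.284 to 5.43 and 5.56 (4.8, adjusted p = 8.69e-10). Sox2 rose from 25.4 and 26.9 to 59 and 54.8 CPM (1.12, adjusted p = 3.12e-09). The losses included Sox9, from 106 and 108 to 68.7 and 60.2 CPM (-0.73, adjusted p = 7.01e-07), and the nuclear receptor gene Nr2f1, from 22.8 and 21.2 to 4.13 and 4.33 (-2.38, adjusted p = 5.6e-11). Of 25 neuronal markers, 12 passed the filter, with 7 higher and 2 lower. This count is likewise a description, since a marker silent in WT could pass only through dKO. The summed level of the 25 markers was 26.3 and 27.2 CPM in WT and 98.5 and 105.0 CPM in dKO, most of it from Map2, Tubb3, Gap43 and Slitrk5. Within that list, Dcx, Nefl, Elavl4 and Gad1 had 0 counts in all 4 libraries, where 0 in a library allows up to 0.0443 to 0.0516 CPM. Stmn2, of the same list, had 0 counts in both WT libraries and 80 and 79 in dKO.

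Cell cycle genes formed the most one-sided list. Among 46 genes of DNA replication and mitosis, 40 rose and 2 fell, and 4 were not called (median 0.69). Mki67, the proliferation marker, had 229 and 237 CPM in WT and 404 and 400.1 in dKO (log2 fold change 0.79, SE 0.0461, adjusted p = 5.33e-09). Foxm1, the transcription factor of mitotic genes, rose from 51.1 and 47.2 to 103 and 102 CPM (log2 fold change 1.06, SE 0.07, adjusted p = 1.98e-08). Rrm2, which supplies deoxynucleotides, rose from 126 and 129.6 to 257 and 252 (0.99, adjusted p = 6.63e-10), the mitotic kinesin gene Kif20a from 70.4 and 71.1 to 165 and 165 (1.23, adjusted p = 2.06e-10) and Cdc20, an activator of the anaphase complex, from 64.7 and 63.9 to 150.4 and 147 (1.21, adjusted p = 1.78e-10). RNA levels do not give the fraction of dividing cells. The regulators upstream were not one-sided: of 15 CDK inhibitor and cyclin D genes, 5 rose, 4 fell and 6 were not called. Ccnd2, the abundant D-type cyclin gene, fell from 3000 and 3173 to 1335 and 1389 CPM (log2 fold change -1.18, SE 0.051, adjusted p = 2.19e-10), and Ccnd1 fell (-0.32, adjusted p = 3.59e-05). Cdkn2a, the locus of p16 and p19ARF, fell from 19.5 and 16.1 to 8.37 and 6.34 CPM (-1.27, adjusted p = 4.21e-05). Of 29 MYC and ribosome production genes, 16 rose, 5 fell and 8 were not called (median 0.17). Myc itself had 178 and 166 CPM in WT and 189.7 and 164 in dKO (0.04, adjusted p = 0.716), while its relative Mycl fell from 25.1 and 25 to 5.33 and 5.29 (-2.24, adjusted p = 1.08e-11) and the nucleolar protein gene Nop56 rose (0.74, adjusted p = 8.66e-09).

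Of 35 WNT pathway and target genes, 21 rose, 11 fell and 3 were not called (median 0.66). Ligand genes went both ways: Wnt7a fell from 88.9 and 84.4 to 25.1 and 24.3 CPM (-1.81, adjusted p = 6.71e-10) and Wnt7b rose from 82.5 and 81 to 133 and 124 (0.66, adjusted p = 7.42e-07). The R-spondin receptor genes Lgr5 and Lgr6 went opposite ways, to similar levels in dKO. Lgr5 rose from 0.936 and 1.17 to 11.7 and 13 CPM (log2 fold change 3.56, SE 0.142, adjusted p = 9.36e-11), while Lgr6 fell from 47.3 and 47.5 to 11.8 and 12.3 (log2 fold change -1.98, SE 0.0804, adjusted p = 1.18e-10). The feedback genes Axin2 and Rnf43 rose from 12.1 and 11 to 25.6 and 23.4 CPM (1.09, adjusted p = 4.49e-08) and from 11.8 and 10.8 to 29.3 and 29.8 (1.38, adjusted p = 2.43e-09). In the EGF receptor and MAPK route, 17 of 37 genes rose, 10 fell and 10 were not called (median 0.16). The ligand genes Ereg, 57.2 and 58.6 to 169.7 and 179 CPM (1.59, adjusted p = 7.69e-12), and Epgn, 5.47 and 5.7 to 19.6 and 20.5 (1.84, adjusted p = 4.9e-11), were higher in dKO. The immediate early gene Egr1 rose from 56.3 and 56.4 to 127 and 116 CPM (1.11, adjusted p = 1.22e-09), and the feedback phosphatase gene Dusp6 by 0.58 (adjusted p = 5.25e-08).

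Of 20 NOTCH genes, 10 rose, 6 fell and 4 were not called (median 0.25). The ligand gene Jag1 rose from 121 and 117 to 203 and 206 CPM (0.78, adjusted p = 2.87e-09), and the target Hes1 from 66.4 and 64.9 to 129 and 117 (0.90, adjusted p = 1.95e-08). The receptor gene Notch1 fell from 349.6 and 321 to 249.5 and 219 (-0.52, adjusted p = 0.000126) and Rbpj, the DNA-binding factor of the pathway, from 141 and 147 to 52.4 and 56.6 CPM (-1.4, adjusted p = 7.57e-11). TGF-beta, BMP and hedgehog genes were divided, 16 higher, 13 lower and 7 not passed of 36 (median 0.15). Inhba, the activin A subunit, was the ligand gene with the large difference, 18.4 and 18.5 CPM in WT and 178 and 186 in dKO (log2 fold change 3.31, SE 0.0514, adjusted p = 1.51e-14). Smad3 fell from 166 and 166 to 78 and 83.2 CPM (-1.04, adjusted p = 4.63e-10), and Tgfbi, a TGF-beta induced matrix protein gene, from 248 and 251 to 41.6 and 39.1 (log2 fold change -2.63, SE 0.0584, adjusted p = 3.31e-13). Of 22 YAP and TEAD targets, 11 rose, 5 fell and 6 were not called (median 0.22). The 2 classical targets parted: Ccn1 rose from 16.1 and 15.1 to 48.2 and 47.8 CPM (log2 fold change 1.62, SE 0.0588, adjusted p = 3.76e-11) and Ccn2 fell from 301 and 309 to 149.7 and 145 (log2 fold change -1.05, SE 0.0457, adjusted p = 2.4e-10). Axl, a receptor kinase gene, fell from 739 and 721 to 229 and 223 CPM (-1.69, adjusted p = 1.93e-12) and Igfbp3 from 649 and 651 to 184 and 189 (-1.8, adjusted p = 1.25e-12).

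Unfolded protein response genes went both ways, and ATF4 targets were mostly lower. Among 30 genes of the unfolded protein response, 9 rose and 12 fell, and 9 were not called. Their median of -0.03 turned to 0.04 with scaling by library size only. Hspa5, the ER chaperone BiP, had 342 and 342 CPM in WT and 410.3 and 408 in dKO (log2 fold change 0.26, SE 0.052, adjusted p = 0.000796). The sensor genes Atf6 and Ern1 fell from 115 and 117 to 70.6 and 72.9 CPM (-0.70, adjusted p = 2.15e-08) and from 52.3 and 52.1 to 30.6 and 32.1 (-0.74, adjusted p = 8.09e-08). In DMSO all 30 were lower in dKO, with a median of -1.88, beside the high chaperone share of the WT DMSO libraries. The genotype effect differed between treatments in 29 of the 30, against 46.8% of all genes tested. ATF4 targets of the integrated stress response were lower in 25 of 34, with 2 higher and 7 not passed (median -0.41). Aldh1l2, a mitochondrial folate enzyme, fell from 109.7 and 112 to 41.8 and 39.2 CPM (log2 fold change -1.45, SE 0.0492, adjusted p = 1.82e-11). Asns, asparagine synthetase, fell from 514 and 542 to 360.1 and 354 (-0.56, adjusted p = 3.21e-07), Trib3, a feedback pseudokinase, from 37.7 and 31.4 to 18.5 and 15.1 (-1.04, adjusted p = 3.98e-06), and Nupr1 from 167 and 158 to 81.8 and 81.3 (-0.99, adjusted p = 4.11e-10). The cystine transporter gene Slc7a11 was an exception and rose from 109 and 114 to 389.6 and 411 CPM (log2 fold change 1.84, SE 0.0516, adjusted p = 2.63e-12). The endpoint genes Ddit3 and Atf3 had differences of -0.07 and -0.07 (adjusted p = 0.455 and 0.585). Of 28 p53 targets, 10 rose, 9 fell and 9 were not called (median 0.09). Cdkn1a, the cell cycle inhibitor p21, rose from 304 and 319 to 369.9 and 368 CPM (0.24, adjusted p = 0.000599), while Mdm2 and Btg2 fell (-0.31, adjusted p = 0.000132, and -0.65, adjusted p = 2.24e-08).

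Metabolic lists moved apart. Cholesterol genes were higher in 20 of 25, lower in 4 and not passed in 1 (median 0.36). Hmgcs1, an early synthesis enzyme, rose from 283 and 289 to 458 and 485 CPM (0.72, adjusted p = 2.56e-08) and Insig1, the sterol-sensing brake, from 31.3 and 33.3 to 72.9 and 77.3 (1.22, adjusted p = 7.36e-09). Abca1, the cholesterol exporter, fell from 5.66 and 6.27 to 0.356 and 0.438 CPM (log2 fold change -3.91, SE 0.189, adjusted p = 7.24e-10). Of 30 fatty acid and lipid genes, 7 rose, 16 fell and 7 were not called (median -0.25). The lipoxygenase genes Alox15 and Alox12 fell from 20.6 and 21.4 to 0.386 and 0.243 CPM (log2 fold change -6.04, SE 0.163, adjusted p = 1.97e-12) and from 39.8 and 37.1 to 4.29 and 4.44 (log2 fold change -3.14, SE 0.101, adjusted p = 1.08e-11). Ptgs2, the cyclooxygenase that opens the prostaglandin branch, rose from 100.3 and 99 to 485 and 486 CPM (log2 fold change 2.28, SE 0.0476, adjusted p = 1.78e-13). The desaturase genes Fads1 and Scd1 fell (-1.16, adjusted p = 7.82e-11) and rose (0.44, adjusted p = 6.96e-06).

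Of 31 glycolysis and hypoxia genes, 19 fell, 7 rose and 5 were not called (median -0.35). Pgk1 fell from 926 and 968 to 420.2 and 443 CPM (-1.13, adjusted p = 2.26e-09), Ldha from 1181 and 1165 to 721 and 706 (-0.72, adjusted p = 1.52e-08), and the angiogenic factor gene Vegfa from 223 and 212 to 99.5 and 96 (-1.16, adjusted p = 2.92e-10). Car9, a strict hypoxia target, stayed under 0.3 CPM in all 4 libraries (0.18, adjusted p = 0.783). Of 37 NRF2 and xenobiotic genes, 19 fell, 11 rose and 7 were not called (median -0.34). Aldh3a1, an abundant aldehyde dehydrogenase gene, fell from 2400 and 2490 to 579 and 583 CPM (log2 fold change -2.07, SE 0.06, adjusted p = 3.78e-12), Gsta3 from 82.3 and 91.2 to 13.1 and 15.4 (-2.61, adjusted p = 1.02e-11) and the quinone reductase gene Nqo1 from 214 and 225 to 138 and 144 (-0.64, adjusted p = 7.7e-07). Gsta4 rose from 1772 and 1958 to 2400 and 2518 CPM (0.40, adjusted p = 7.16e-05). Glutathione transferases are close paralogs whose reads counting may have shared. Lysosome and autophagy genes were lower in 18 of 31, higher in 4 and not passed in 9 (median -0.17). The cathepsin genes led: Ctsh fell from 126 and 128 to 3.55 and 3.55 CPM (log2 fold change -5.16, SE 0.0692, adjusted p = 6.85e-15) and Ctsl from 1685 and 1748 to 355 and 369 (log2 fold change -2.24, SE 0.051, adjusted p = 4.13e-13). Hexa, a hexosaminidase subunit, fell from 33.4 and 35.3 to 5.58 and 6.19 CPM (-2.54, adjusted p = 2.91e-11).

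Innate immune genes of the epithelium were lower on balance of their counts. Of 35 interferon response genes, 15 fell, 9 rose and 11 were not called (median -0.15). Usp18, a brake on interferon signalling, fell from 40.8 and 41.7 to 2.18 and 2.85 CPM (log2 fold change -4.04, SE 0.1, adjusted p = 9.27e-13). Irf1, an interferon-induced transcription factor, fell from 49.2 and 48.6 to 6.44 and 7.39 (log2 fold change -2.82, SE 0.0935, adjusted p = 1.47e-11). The antiviral gene Oas3 fell from 16.5 and 15.2 to 0.579 and 1.17 CPM (-4.2, adjusted p = 3.18e-10). Mx1, which RefSeq lists here as a transcribed pseudogene, fell from 18.2 and 18.8 to 3.5 and 3.79 (-2.35, adjusted p = 5.51e-10). In DMSO the list's median was 0.86. The genotype effect differed between treatments in 18 of the 35 genes, near the 46.8% of all genes tested. It was lower with MI503 in 17 of the 18, against 3725 of the 7915 called over all genes. Of 33 cytokine, chemokine and NF-kB genes, 16 fell, 7 rose and 10 were not called (median -0.58). Il1rn, the IL-1 receptor antagonist, fell from 167 and 178 to 10.3 and 11.1 CPM (log2 fold change -4.02, SE 0.0764, adjusted p = 8.81e-14), Il1a from 65.7 and 69.2 to 24.6 and 28 (-1.36, adjusted p = 1.36e-09), the alarmin gene Il33 from 423 and 454 to 117 and 130.2 (-1.82, adjusted p = 2.29e-11) and Icam1, a leukocyte adhesion receptor, from 43.6 and 44.1 to 7.5 and 7.13 (-2.58, adjusted p = 1.25e-12). MHC class I and antigen presentation genes were higher in 12 of 21, lower in 6 and not passed in 3 (median 0.50). B2m, the shared light chain, rose from 70.6 and 74.1 to 99.9 and 104 CPM (0.50, adjusted p = 4.74e-05). Mill2, the paralog of Mill1, fell from 12.8 and 13.6 to 1.19 and 1.57 CPM (-3.26, adjusted p = 1.08e-10), opposite to it. Of 19 immune cell markers, 17 failed the filter, and the remaining pair, Cd68 and Cd14, which epithelia also express, was lower in dKO.

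Matrix genes went both ways, and the summed level of both lists was higher in each dKO library than in either WT library. The collagen list summed to 1316 and 1217 CPM in WT and 1852 and 1573 in dKO, most of it from Col18a1, a basement membrane collagen, which rose from 896 and 813 to 1743 and 1473 CPM (0.91, adjusted p = 3.66e-06). The mesenchymal transition and matrix list summed to 3662 and 3538 CPM in WT and 3983 and 3817 in dKO. Sparc, a secreted collagen-binding glycoprotein, fell from 199.7 and 199 to 3.61 and 4.04 CPM (log2 fold change -5.71, SE 0.0798, adjusted p = 8.77e-15). Col8a1, a short-chain collagen, fell from 142 and 148 to 3.4 and 3.11 (log2 fold change -5.47, SE 0.0868, adjusted p = 1.73e-14), and Fbln2, fibulin 2 of basement membranes, from 63.5 and 61.1 to 1.17 and 1.12 (log2 fold change -5.76, SE 0.114, adjusted p = 1.16e-13). The basement membrane chains Col4a1 and Col4a2, which share a promoter region, fell from 97 and 89.4 to 25 and 24.9 CPM (-1.9, adjusted p = 2.23e-10) and from 138 and 125 to 39.4 and 33.1 (-1.86, adjusted p = 1.04e-09). Of 20 tested collagens, 10 fell, 6 rose and 4 were not called (median -0.59). Col12a1 was among those that rose, from 0.687 and 0.986 to 12.1 and 11.1 CPM (3.8, adjusted p = 2.17e-10). Genes of mesenchymal transition and matrix were even, 13 higher, 12 lower and 7 not passed of 32 (median 0.40): Fn1, fibronectin, rose from 28.7 and 26.1 to 89.7 and 89.7 CPM (log2 fold change 1.71, SE 0.0639, adjusted p = 5.03e-11) and Vim, vimentin, fell from 27.8 and 24.5 to 15.6 and 13.2 (-0.86, adjusted p = 5.62e-06). Of 13 fibroblast markers, 4 were tested, and Col1a2, Dcn, Lum and Thy1 had 0 counts in all 4 libraries. Pdgfra, a growth factor receptor gene, rose from 1.21 and 1.49 to 7.41 and 8.27 CPM (2.54, adjusted p = 9.65e-09) and Col1a1 from 0.0877 and 0.0501 to 0.297 and 0.227 (1.88, adjusted p = 0.0179). Pdpn, podoplanin, which basal epithelia also make, fell from 61.8 and 63.6 to 0.92 and 0.956 CPM (log2 fold change -6.06, SE 0.0937, adjusted p = 1.51e-14), and Pdgfrb was not called.

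Of 27 actin and contractile genes, 13 fell, 7 rose and 7 were not called (median -0.11). Nonmuscle myosin heavy chains went opposite ways: Myh10 rose as given above and Myh14, nonmuscle myosin IIC, fell from 33.9 and 29.7 to 3.96 and 3.5 CPM (log2 fold change -3.09, SE 0.105, adjusted p = 1.96e-11). Mylk, the myosin light chain kinase, fell from 4.84 and 4.71 to 0.0891 and 0.081 CPM (log2 fold change -5.78, SE 0.28, adjusted p = 7.36e-10), and Acta2, smooth muscle actin, from 42 and 39.6 to 7.12 and 7.15 (-2.52, adjusted p = 1.2e-10). Of 12 smooth muscle markers, 9 were tested: 2 rose, 5 fell, Mylk and Acta2 among them, and 2 were not called. Those that rose were Smtn, smoothelin, from 71.9 and 63.3 to 134 and 110.2 CPM (0.86, adjusted p = 2.25e-05), and the receptor gene Notch3, from 32.9 and 33.1 to 42.3 and 36.7 (0.26, adjusted p = 0.0265). The other 3 markers, Cnn1, Actg2 and Tagln, were under 0.1 CPM in all 4 libraries. In the caveola coat, Cav1 rose from 521 and 542 to 840.1 and 874 CPM (0.69, adjusted p = 4.02e-08) while Cavin1 fell from 548 and 553 to 197 and 178 (-1.55, adjusted p = 1.96e-11). Among 34 tested imprinted genes, 15 fell, 3 rose and 16 were not called (median -0.15). Besides the Peg10 neighbourhood, Plagl1, a growth-regulating zinc finger gene, fell from 29 and 29.3 to 10.2 and 9.87 CPM (log2 fold change -1.54, SE 0.0608, adjusted p = 8.69e-11).

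Most genes called under MI503 were also called in DMSO in the same direction. The 2 comparisons share no library, though they share the lines, the scaling and the estimate of spread. As a base for the shares below, 5017 of the 16921 tested genes were higher in dKO in DMSO and 6053 lower. Of the 9322 genes called under MI503, 6024 (64.6%) were called in the same direction in DMSO, 2750 higher and 3274 lower, which is 54.4% of the 11070 DMSO calls. The share was 75.1% of the 2913 genes with at least 2-fold and 79.8% of the 1502 with at least 4-fold changes under MI503. Across the 16921 genes, which are not independent replicates, the log2 fold changes had a Pearson correlation of 0.735 and a Spearman correlation of 0.56. The median absolute log2 fold change was 0.351 under MI503 and 0.522 in DMSO, where the WT libraries stand apart. The test of the difference between the 2 genotype effects called 7915 genes, 46.8% of those tested, 4190 with a higher value under MI503 and 3725 with a lower. That split rests on the scaling: with library size only it was 2977 and 5015, as the median of all differences moved from 0.02 to -0.14. Among genes called in the same direction in both, the effect was smaller under MI503 in 1884, larger in 866 and not distinguishable by the test in 3274. The difference for Kmt2c was -0.07 (adjusted p = 0.529).

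**Figure D4:**
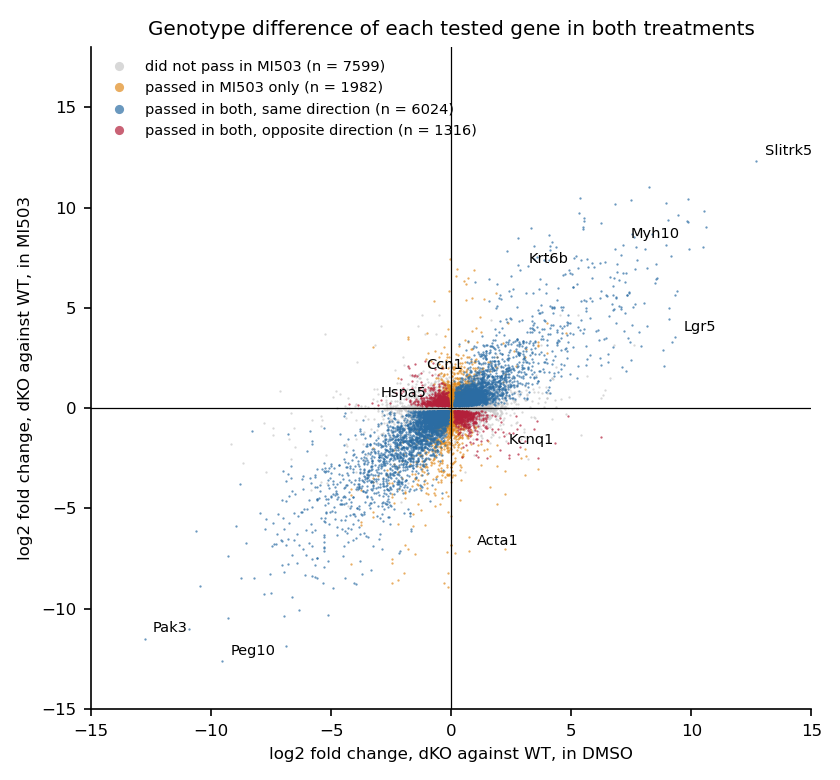
Log2 fold change of dKO against WT in DMSO (horizontal) and in MI503 (vertical) for the 16921 tested genes, 1 point per gene, coloured by the calls. Blue points, 6024 genes called in the same direction in both treatments, run along the diagonal; the 1316 red points lie in the upper left and lower right corners and mostly close to 0.

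A set of 1316 genes changed direction: 765 were higher in dKO under MI503 and lower in DMSO, and 551 the reverse. The interaction passed for all 1316, which adds little, since called effects of opposite sign largely ensure it. Ccn1, the secreted YAP target named above, had 16.1 and 15.1 CPM in WT MI503 and 48.2 and 47.8 in dKO MI503, but 96.5 and 100.5 in WT DMSO and 36.8 and 37.5 in dKO DMSO (log2 fold change -1.41 in DMSO, adjusted p = 6.04e-11). Dpysl2, a microtubule regulator of growing axons, had 6.55 and 6.9 and 23.2 and 22.8 CPM under MI503 against 23.7 and 25.5 and 10 and 10.3 in DMSO (1.78 and -1.27). In both genes the WT level was lower with MI503 than in DMSO, and the dKO level differed by a smaller factor. E2f7, a repressor of the E2F family, and Recql4, a helicase, also rose under MI503 and fell in DMSO. In the other direction, Kcnq1, a potassium channel of epithelia, had 26.2 and 25.4 CPM in WT MI503 and 6.28 and 5.95 in dKO MI503, but 1.66 and 1.65 and 6.58 and 6.95 in DMSO (-2.08 and 2.03). Selenbp1, a methanethiol oxidase, had 22.2 and 22.1 and 3.89 and 3.92 CPM under MI503 and 1.37 and 1.83 and 5.12 and 3.85 in DMSO (-2.5 and 1.48). Lgals9, galectin 9, and Il33 followed the same pattern. The WT DMSO libraries enter every one of these DMSO values.

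**Figure D5:**
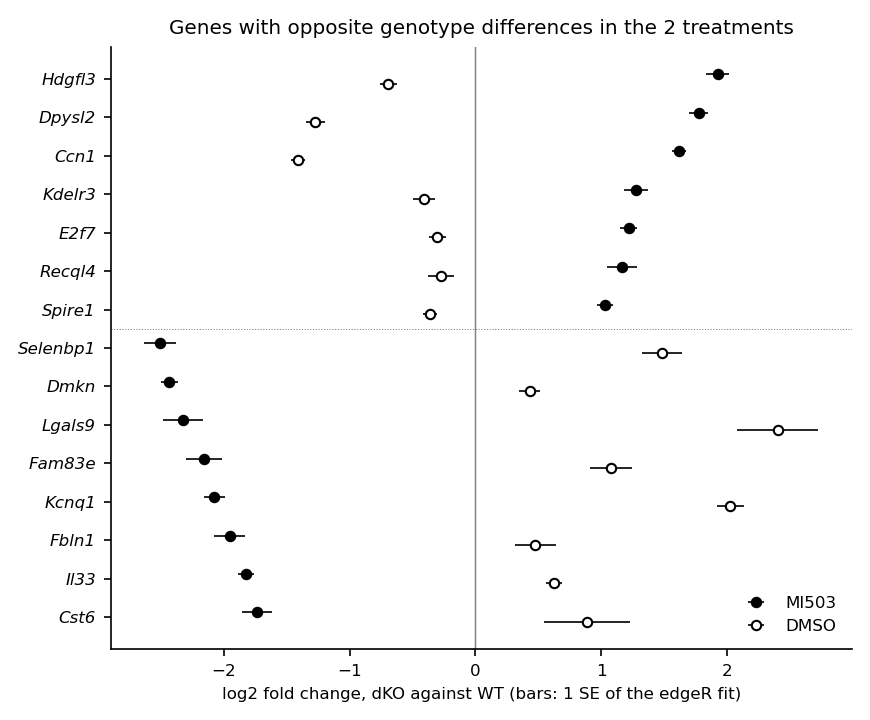
Log2 fold change of dKO against WT in MI503 (filled) and in DMSO (open) for 15 genes with large MI503 differences among those with opposite calls, with 1 SE of the edgeR fit. Each pair of points lies on opposite sides of 0, from 1.93 and -0.69 for Hdgfl3 to -2.50 and 1.48 for Selenbp1.

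A further 1982 genes were called under MI503 and not in DMSO, 979 higher and 1003 lower. Only for 1143 of them did the difference between treatments pass, 588 higher and 555 lower. The genotype effect of Slc16a6, a monocarboxylate transporter family gene, was 1.79 under MI503, with 4.36 and 3.78 CPM in WT and 13.2 and 15 in dKO, and 0.02 in DMSO (adjusted p = 0.823; difference 1.77, adjusted p = 1.52e-07). Hoxa11 had -0.08 in DMSO (adjusted p = 0.222; difference 1.25, adjusted p = 6.61e-08), and the mitotic kinesin gene Cenpe -0.06 against 1.05 under MI503 (difference 1.1, adjusted p = 7.89e-08). Casp4, the inflammatory caspase 11 of mice, rose from 3.57 and 3.59 to 8.45 and 8.57 CPM under MI503 and had 0.18 in DMSO (SE 0.0966), where it was not called. On the lower side, Acta1 led with a difference of -7.85 between treatments (adjusted p = 8.07e-06), and Oas3 and Mx1 had -3.96 and -1.9 (adjusted p = 1.06e-06 and 2.01e-05). Lgr6 had -0.18 in DMSO against -1.98 under MI503 (difference -1.79, adjusted p = 3.84e-06). Serpinb1a, a neutrophil elastase inhibitor, and Tspan1, a tetraspanin of surface epithelia, had -2.5 and -2.09 under MI503 against 0.16 and -0.15 in DMSO.

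Genes also differed by chromosome. The median log2 fold change under MI503 was highest on chromosome 8, 0.235 over 814 tested genes, of which 50.0% were higher and 14.9% lower. It was lowest on chromosome 16 (-0.234, 465 genes, 14.8% higher and 49.9% lower), chromosome 7 (-0.229, 1187 genes) and the X chromosome (-0.196, 609 genes). The DMSO medians, from other libraries of the same lines, were 0.235, -0.263, -0.196 and -0.274 in that order. The labels do not give the copy number of either line, and its part in the single-gene differences above was not tested.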

How the data were processed

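PolyA RNA of 8 libraries was sequenced; the 4 MI503 libraries make the comparison described. The deposited file gives whole-number read counts for each Ensembl gene, not normalized, with unequal column totals. STAR and the builds GRCm38 and mm10 are named per the submitters' processing notes for the whole series. The sources used here do not give tool versions, the way reads were assigned to genes, the use of strand or the annotation, so overlapping or antisense genes and close paralogs are uncertain. Of 53465 identifiers 53274 had a symbol; 1 row with no identifier was left out.

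The fit used R 4.3.3 and edgeR 4.0.16: filterByExpr (minimum count 10, total 15) kept 16921 genes and dropped 36544, TMM scaled the libraries, and 1 mean per group over all 8 libraries left 4 residual degrees of freedom (prior count 0.125). The contrasts were dKO against WT in MI503, the same in DMSO, and their difference. Two-sided quasi-likelihood F tests were adjusted by Benjamini-Hochberg over all genes, with a threshold of 0.05, and each SE is the size of the log2 fold change divided by the root of its F. With 2 against 2 libraries an exact permutation test cannot go below p = 0.33. Positions and promoter windows are from RefSeq, GRCm38.p6, matched by symbol. A list is described by its counts and median, with no test. Replicates differed by more than sampling noise (chi-square per degree of freedom 5.48 to 14.3).

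The members, lists and rules were chosen with earlier results of these data known. Named genes were the 10 largest called changes per direction with no overlap and a mean of at least 5 CPM, up to 4 genes per list by adjusted p plus set anchor genes, up to 8 per direction with opposite effects, up to 8 per direction called only under MI503, and up to 8 all-or-none genes per direction. Marker genes named at or near 0, Tubb3, Stmn2, Col18a1, Pdgfra, Pdgfrb, Col1a1, Smtn, Notch3 and the all-or-none transcription factors were chosen after their values were seen. Some genes that the rules name are not reported here. The fit was tested on simulated data. Alternatives were RLE factors, scaling by library size alone, DESeq2 1.42.0, no filter or a stricter one, only the 4 MI503 libraries, leaving out both WT DMSO libraries, leaving out each library, and a replicate block.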

Additional observations from a re-analysis of the deposited data

Results flagged for a closer look

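Genes whose genotype difference had opposite signs under MI503 and in DMSO, with an interaction past the threshold, are listed by the difference of the 2 log2 fold changes (MI503 minus DMSO). They were chosen by the size of the MI503 difference in each direction, the effects were compared by edgeR's interaction test, and all DMSO effects use the WT DMSO libraries that stand apart in ER chaperone share. Among genes higher in dKO under MI503, the difference was 3.05 for Dpysl2, 3.03 for Ccn1, 2.62 for Hdgfl3, 1.68 for Kdelr3, 1.52 for E2f7, 1.44 for Recql4 and 1.39 for Spire1. Kdelr3 encodes an ER retrieval receptor, and its part in the high ER chaperone level of WT DMSO was not tested. Among genes lower in dKO under MI503, the difference was -4.73 for Lgals9, -4.1 for Kcnq1, -3.99 for Selenbp1, -3.24 for Fam83e, -2.87 for Dmkn, -2.63 for Cst6, -2.45 for Il33 and -2.43 for Fbln1.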

How the results depend on the processing

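The counts of higher and lower genes, of at least 2-fold changes and of differing genotype effects stayed within 1.5 times their values under the alternatives run, except that 690 genes in place of 1111 were at least 2-fold higher with the stricter filter, which tested 12874 genes. The main counts were 4494 higher and 4828 lower; with only the 4 MI503 libraries they were 4709 and 4883, with DESeq2 4097 and 4335, and without both WT DMSO libraries 4571 and 4723. Leaving out each library in turn gave 3596 to 4606 higher and 4060 to 4970 lower genes, and where that left 1 library in a group, it is assumed to vary like the others. The labels do not say that replicate numbers pair the libraries; the deviations of WT MI503 and dKO MI503 correlated at 0.499, but those of dKO DMSO and dKO MI503 at -0.705. With the replicate block 4305 genes were higher and 4666 lower, and 7572 in place of 7915 differed between treatments; with the block and only the MI503 libraries, an alternative chosen after seeing the data, 5353 were higher and 5385 lower. Library size only moved the share of higher genes among the calls from 48.2% to 56.2%, and the median by 0.07. Of 278 named genes, 260 kept their side of the threshold in every alternative run; 18 did not, and 0 reversed. Depth limits genes near 0 counts, where ratios are bounds or have wide intervals.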
